A study of Mus musculus with 18 samples.

Results

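The 40 cell cycle genes described here were followed from mouse embryonic stem (ES) cells, through cells differentiated in culture, to germ cells of the embryonic gonad and the juvenile testis. They were named as members of the cell cycle machinery, without a threshold on any measured value, out of 27603 genes named on the arrays. They fall into 3 classes: 15 G1/S genes (cyclins D and E, their kinases, the inhibitors of these kinases, Rb1 and E2f1), 10 replication licensing genes and 15 genes that act between S phase and mitosis. The arrays carried 59 probes for them. All 40 had a probe well above background on both arrays of at least 1 group, and 39 had a used probe well above background on all 18 arrays, the exception being Ccna1.

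All cells were labelled as from male C57BL/6 129SV mixed mice or ES lines. The Y-linked genes of E13.5 replicate 1 did not match that label, as given below. RNA was hybridised in 1 colour to Agilent whole-genome arrays, with 2 samples in each of 9 groups. Both ES lines carry a green fluorescent protein (GFP) reporter of a germ cell gene, Stella (Dppa3, on a bacterial artificial chromosome) or Dazl. The series asks how gene expression differs as reporter ES cells become germ-like cells in culture, with sorted germ cells of animals beside them. ES cells were kept on mouse embryonic fibroblast feeders with Lif and sorted into GFP-positive and GFP-negative cells, which gave 4 ES groups. For differentiation, feeders were removed and cells were replated on gelatin, and GFP-positive cells were then sorted from the Stella line at day 7 and from the Dazl line at day 12 and at day 16. Dazl-GFP-positive cells were sorted from gonads of transgenic embryos at E13.5 and from testes of transgenic juveniles at P7 to P11. The labels do not say whether the 2 samples of a group came from separate cultures or animals, so the spread between them may be technical.

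A level here is the log2 signal of a probe minus the log2 of its array's 75th percentile, so that 0 marks that percentile. Differences between groups are log2 differences with their standard errors (SE) from a limma fit over all 18 arrays and 18876 tested genes. The fit takes 1 spread per gene from all 9 groups, so an SE does not measure the spread of the groups compared. The median absolute replicate difference of the members was 0.563 at E13.5, 0.364 in juvenile testis and at most 0.244 elsewhere. SEs and p-values of comparisons with E13.5 or juvenile testis can therefore be too small. A gene is called where the p-value adjusted by Benjamini-Hochberg over all tested genes is under 0.05. Levels were not compared between genes, because each probe has its own brightness. The samples are bulk RNA of sorted cells, so fewer cells of a type and less RNA per cell cannot be told apart.

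The reporter genes matched the gates: Dppa3 was at 5.15 and 5.34 in GFP-positive Stella ES cells against 2.60 and 2.63 in GFP-negative ones, and Dazl was at 0.79 and 0.73 in GFP-positive Dazl ES cells against -3.29 and -3.42 in GFP-negative ones. The summed level of 5 germ cell markers, on the linear scale, ran from 4.31 to 7.61 over the ES arrays, from 11.7 to 47.7 over the culture arrays and from 119 to 179 over the arrays of animals. The 2 libraries labelled E13.5 stood apart from each other. Replicate 1, labelled male, had the Y-linked genes Ddx3y and Eif2s3y not well above background, which they were on every other array. Eif2s3y was at -7.29 in replicate 1 against 3.17 in replicate 2, and Ddx3y at -7.45 against -1.36. The Stra8 level of replicate 1 was 8.87 against 1.55 in replicate 2. These Y-linked levels do not match the male label, and the sex of the cells was not tested. E13.5 means are taken over both libraries. Differences without E13.5 replicate 1, and calls lost without it, are given below. Any fit with an array left out has 1 library in that group, so its spread comes from the other groups. The E13.5 and juvenile arrays shared a slide that held no cultured cells, so slide and group cannot be told apart when they are set against culture. The day 7 arrays likewise shared no slide, scan day or extraction protocol with the Stella ES arrays, so none of these can be told apart from the day 7 differences.

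Progress through the cell cycle is driven by cyclin-dependent kinases. Cyclins D and E with their kinases inactivate the retinoblastoma protein and release E2F factors, which activate genes for DNA replication, while inhibitors of the INK4 and CIP/KIP families hold the kinases back. Origins are licensed in G1 by loading of the MCM helicase with Cdc6 and Cdt1, and cyclins A and B with Cdk1 then carry the cell through G2 into mitosis. Mouse ES cells are known for rapid division with a short G1 phase. Male germ cells stop dividing in the fetal gonad, resume as spermatogonia after birth, and enter meiosis in the juvenile testis.

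Promoters are shown for 5 members, with their results at the percentile scaling. The MCM helicase subunits Mcm5 and Mcm6 were higher at E13.5 than at day 16 and lower in juvenile testis than at E13.5. The G2/M genes Ccnb2 and Cdk1 were also lower in juvenile testis than at E13.5. The cyclin Ccna1 was higher in the 5 differentiated groups than in ES cells. Each runs from 250 bases before to 50 after the annotated start, 5′ to 3′ on the gene's strand, from RefSeq on GRCm38.p6, and capitals mark the motifs searched on both strands. These were the E2F-type letters TTTCCCGC, TTTGGCGC, TTTCGCGC and TTTGCCGC, the cell cycle homology region TTTGAA and the CCAAT box. Mcm5 lies at chr8:75109259-75109558 on the plus strand, Mcm6 at chr1:128359656-128359955 on the minus strand, Ccnb2 at chr9:70421505-70421804 on the minus strand, Cdk1 at chr10:69352863-69353162 on the minus strand and Ccna1 at chr3:55055006-55055305 on the minus strand.
Mcm5: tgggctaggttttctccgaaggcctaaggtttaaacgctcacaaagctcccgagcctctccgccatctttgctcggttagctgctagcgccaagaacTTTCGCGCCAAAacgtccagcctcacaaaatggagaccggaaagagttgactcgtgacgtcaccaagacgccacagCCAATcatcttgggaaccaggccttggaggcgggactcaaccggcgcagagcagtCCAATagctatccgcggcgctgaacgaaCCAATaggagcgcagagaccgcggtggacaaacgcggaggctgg
Mcm6: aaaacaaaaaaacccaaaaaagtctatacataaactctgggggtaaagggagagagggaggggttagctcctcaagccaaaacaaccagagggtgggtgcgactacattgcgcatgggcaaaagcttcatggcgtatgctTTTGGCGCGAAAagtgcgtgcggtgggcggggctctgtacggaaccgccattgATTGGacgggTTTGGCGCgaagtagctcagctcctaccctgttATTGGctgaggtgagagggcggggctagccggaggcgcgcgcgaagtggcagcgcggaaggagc
Ccnb2: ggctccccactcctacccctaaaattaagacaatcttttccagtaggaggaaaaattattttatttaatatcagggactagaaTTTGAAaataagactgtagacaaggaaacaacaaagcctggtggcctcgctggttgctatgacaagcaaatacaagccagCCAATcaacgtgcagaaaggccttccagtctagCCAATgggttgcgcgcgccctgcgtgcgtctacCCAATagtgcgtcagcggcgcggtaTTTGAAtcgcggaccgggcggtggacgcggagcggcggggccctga
Cdk1: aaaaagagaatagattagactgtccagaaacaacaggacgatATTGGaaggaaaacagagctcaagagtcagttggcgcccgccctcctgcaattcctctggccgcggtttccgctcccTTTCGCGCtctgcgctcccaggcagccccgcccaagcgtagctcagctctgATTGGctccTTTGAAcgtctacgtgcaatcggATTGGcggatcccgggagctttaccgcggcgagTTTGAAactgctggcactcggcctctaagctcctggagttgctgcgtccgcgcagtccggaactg
Ccna1: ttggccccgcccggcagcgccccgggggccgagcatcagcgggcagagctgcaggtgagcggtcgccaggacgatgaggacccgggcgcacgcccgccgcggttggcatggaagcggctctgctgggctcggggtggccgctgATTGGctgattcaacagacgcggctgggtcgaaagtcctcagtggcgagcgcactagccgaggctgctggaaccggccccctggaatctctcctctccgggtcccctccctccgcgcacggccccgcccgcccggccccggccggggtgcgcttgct
In Mcm5 and in Mcm6, E2F-type letters on the 2 strands overlap and form 1 longer capital run. Ccnb2 and Cdk1 each held TTTGAA and CCAAT, and Cdk1 also held the E2F-type TTTCGCGC. The Ccna1 window held a single CCAAT box and none of the other letters.

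RefSeq promoters were matched for 32 of the 40 members, 37 promoters in all. Ccnd1, Ccne2, Rb1, Mcm4, Gmnn, Ccna2, Aurkb and Wee1 were not matched. E2F-type letters stood in 6 of 8 licensing genes, 2 of 12 G1/S genes and 1 of 12 S to M genes, against 2.6% of 27025 genes with a promoter of the same length. TTTGAA together with CCAAT stood in 8 of 12 S to M genes, 1 of 8 licensing genes and 0 of 12 G1/S genes, against 7.97% of all genes. A match to letters is a description and was not tested as a binding site.

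**Figure D1:**
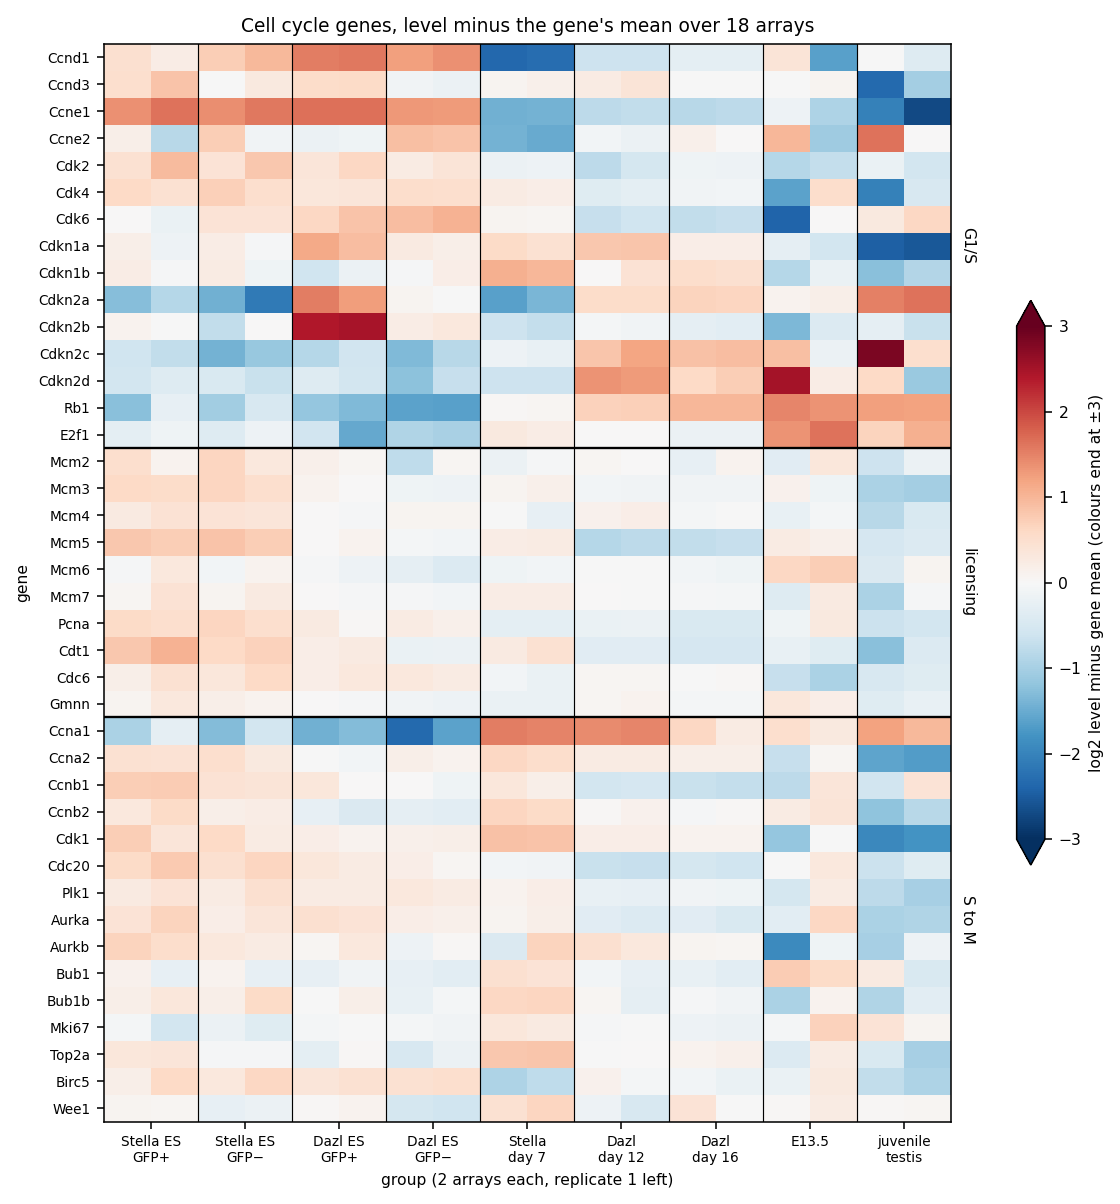
Heat map of the 40 cell cycle genes (one line each, by class) on the 18 arrays, coloured by level minus that gene's mean over all arrays, in log2 units, with the colours ending at 3 in each direction. Ccne1 and Ccnd1 are high on the ES arrays, Rb1 and E2f1 on the E13.5 and juvenile arrays, and most S to M genes are low on the 2 juvenile arrays.

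At the percentile scaling the fewest members were called with the reporter gates and the most in the juvenile testis. None was called in the Stella-GFP sort, where 0.0901% of all tested genes were called higher and 0.35% lower (0.44% either way). Before adjustment, limma gave p under 0.05 for 1 member, which was higher. In the Dazl-GFP sort 3 members were called higher and 0 lower in GFP-positive cells, that is 7.5% of members, beside 1.48% of all genes called higher and 1.39% lower (2.87% either way).

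Against GFP-positive ES cells of the same line, 2 members were called higher and 7 lower at day 7 (22.5%), beside 7.62% of all genes higher and 13% lower (20.6% either way). At day 12 the counts were 4 higher and 8 lower (30%), beside 13.1% and 14.2% of all genes (27.3% either way). At day 16 they were 4 higher and 10 lower (35%), beside 11.1% and 13.6% of all genes (24.7% either way). In culture the share of members called was thus near that of all genes at days 7 and 12 and above it at day 16.

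E13.5 cells had 7 members called higher and 8 lower against GFP-positive Dazl ES cells (37.5%), beside 23.4% of all genes higher and 21.4% lower (44.8% either way). Against day 16 cells they had 6 higher and 4 lower (25%), beside 24.1% and 18.4% of all genes (42.5% either way). Both shares were below the share of all genes. Juvenile testis cells had 4 members called higher and 21 lower against the same ES cells (62.5%), beside 26.3% of all genes higher and 27.5% lower (53.8% either way). Against E13.5 cells they had 2 higher and 17 lower (47.5%), beside 16% and 18.9% of all genes (34.8% either way). In both juvenile comparisons fewer members were called higher, and more lower, than the shares of all genes give, at this scaling. The Dazl sort, day 12, day 16, E13.5 and juvenile comparisons with ES cells share the 2 GFP-positive Dazl ES arrays, so these counts are not independent of each other.

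Of the 40 members, 31 were called at least once (77.5%), beside 78.8% of all tested genes. In all of their 107 calls the arrays of both groups did not overlap, as in 99.9% of the calls over all genes. The median difference of the members was -0.35 at day 7 (all genes -0.15), -0.17 at day 12 (-0.11), -0.17 at day 16 (-0.15) and -0.14 at E13.5 (0.05), each against ES cells. It was -0.68 in juvenile testis against ES cells (all genes -0.01) and -0.55 against E13.5 (all genes -0.08).

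The number of members called depended on the scaling of the arrays. The shares of all genes called under the other scalings are not given here. These counts therefore do not tell a change in the members from a change in all genes. Quantile normalization gave 7 higher and 4 lower at day 7, 7 and 7 at day 12, 5 and 7 at day 16, 6 and 10 at E13.5 against ES cells, and 3 and 6 at E13.5 against day 16. In juvenile testis it gave 5 and 16 against ES cells and 3 and 7 against E13.5. Background correction by normexp gave 0 higher and 2 lower at day 7, 4 and 3 at day 12, 1 and 9 at day 16, 12 and 11 at E13.5 against ES cells, 22 and 6 at E13.5 against day 16, 4 and 12 in juvenile testis against ES cells and 2 and 8 against E13.5. Quantile normalization moved the median of all genes by 0.11 at day 7, 0.12 at day 12 and 0.13 at day 16. Under normexp that median moved by 0.15 in both sorts, -0.27 at day 7, -0.20 at day 12, 0.36 at day 16, -0.53 at E13.5 and -0.65 in juvenile testis against ES cells, -0.73 at E13.5 against day 16 and -0.22 in juvenile testis against E13.5. Under all 3 scalings 0 of 2 higher and 2 of 7 lower calls were made at day 7, 2 of 4 and 3 of 8 at day 12, 1 of 4 and 5 of 10 at day 16, 5 of 7 and 7 of 8 at E13.5 against ES cells, 3 of 6 and 1 of 4 against day 16, 2 of 4 and 10 of 21 in juvenile testis against ES cells, and 2 of 2 and 7 of 17 against E13.5.

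Among the G1/S genes, 3 of the 6 kinase inhibitors were called higher in GFP-positive than in GFP-negative Dazl ES cells. The other 3, Cdkn1b, Cdkn2c and Cdkn2d, were not called (-0.47, 0.36 and 0.50). In this sort 1.48% of all genes were called higher and 1.39% lower. Cdkn2b, an INK4 inhibitor of Cdk4 and Cdk6, was at 2.82 and 2.90 in GFP-positive Dazl ES cells against 0.64 and 0.72 in GFP-negative ones. Its difference was 2.17 ± 0.30, adjusted p = 0.00521, a fold of 4.51. Cdkn2a, whose locus encodes an INK4 inhibitor and Arf, was at -0.51 and -0.77 in GFP-positive against -1.95 and -2.05 in GFP-negative cells (1.36 ± 0.23, adjusted p = 0.0129). Both GFP-positive arrays lay above both GFP-negative ones for each gene. Cdkn1a, the CIP/KIP inhibitor induced by p53, was at 2.15 and 1.94 in GFP-positive against 1.28 and 1.17 in GFP-negative cells (0.82 ± 0.18, adjusted p = 0.0347).

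The GFP-positive and GFP-negative Dazl ES samples of one number shared a slide. Within slides 1 and 3 the difference was 2.17 and 2.18 for Cdkn2b, 1.44 and 1.28 for Cdkn2a, and 0.88 and 0.77 for Cdkn1a. With 1 array left out, Cdkn1a and Cdkn2a lost their calls whichever of the 4 it was, and Cdkn2b kept its call only without GFP-positive replicate 1. With slide as a block, Cdkn2b kept its call, and Cdkn2a and Cdkn1a lost theirs. Cdkn2b was the member called under all 3 scalings. The summed level of 8 fibroblast markers was 42 and 38.3 in GFP-positive cells against 9.2 and 8.64 in GFP-negative cells, on the linear scale, with 5 of the 8 called higher and all 8 well above background on both GFP-positive arrays. Feeder fibroblasts were present in these cultures, and the part of fibroblast RNA in the inhibitor differences was not tested.

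In the Stella sort Cdkn2a had the smallest p of the members. Its levels were -3.31 and -2.88 in GFP-positive against -3.48 and -4.16 in GFP-negative cells, which was not called (0.72 ± 0.23, adjusted p = 0.378). The Stella sort difference minus the Dazl sort difference was -1.77 ± 0.43 for Cdkn2b (adjusted p = 0.297), -0.92 ± 0.25 for Cdkn1a (adjusted p = 0.429) and -0.64 ± 0.33 for Cdkn2a (adjusted p = 1). By limma 0 members were called for it, beside 0.0053% of all genes higher and 0.0265% lower (0.0318% either way). Before adjustment, 2 members had p under 0.05, both lower.

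Ccne1 and Ccnd1, cyclins that open the cycle, were lower in all 5 differentiated groups than in GFP-positive ES cells. Ccne1, cyclin E1, the partner of Cdk2 at the start of S phase, was at 3.70 and 3.74 at day 7 against 6.52 and 6.79 in GFP-positive Stella ES cells. It was at 4.36 and 4.41 at day 12, 4.31 and 4.36 at day 16, 5.0 and 4.24 at E13.5 and 3.12 and 2.43 in juvenile testis, against 6.79 and 6.80 in GFP-positive Dazl ES cells. All differentiated arrays lay below all 8 ES arrays. The difference was -2.93 ± 0.26, adjusted p = 7.94e-05 at day 7, -2.41 ± 0.26, adjusted p = 8.27e-05 at day 12 and -2.46 ± 0.26, adjusted p = 8.32e-05 at day 16. It was -2.18 ± 0.26, adjusted p = 5.71e-05 at E13.5 and -4.02 ± 0.26, adjusted p = 3.84e-07 in juvenile testis against ES cells, and -1.84 ± 0.26, adjusted p = 0.000294 in juvenile testis against E13.5. These 6 calls were made under all 3 scalings and with any 1 of the compared arrays left out.

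Ccnd1, cyclin D1, which joins Cdk4 and Cdk6 in answer to growth signals, was at -1.06 and -0.98 at day 7 against 1.77 and 1.53 in GFP-positive Stella ES cells (-2.67 ± 0.45, adjusted p = 0.00239). Its levels were 0.67 and 0.67 at day 12, 1.01 and 1.01 at day 16, 1.67 and -0.33 at E13.5 and 1.29 and 0.92 in juvenile testis, against 2.83 and 2.87 in GFP-positive Dazl ES cells. The 2 E13.5 libraries lay far apart, but both were below these ES arrays. Without E13.5 replicate 1 the E13.5 difference from ES cells was -3.18, and without replicate 2 it was -1.18. Over all arrays Ccnd1 fell by 2.18 at day 12, 1.84 at day 16, 2.18 at E13.5 and 1.75 in juvenile testis (adjusted p between 0.00231 and 0.0128). The day 16 call was lost whichever of the 4 arrays was left out.

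Ccnd3, cyclin D3, was called in the 2 juvenile comparisons and in none of the other 7. Its levels in juvenile testis were 0.93 and 2.23, against 3.25 and 3.34 at E13.5 (-1.72 ± 0.32, adjusted p = 0.00166) and 3.80 and 3.84 in GFP-positive Dazl ES cells (-2.24 ± 0.32, adjusted p = 0.000135). The 2 juvenile arrays differed from each other but both lay below all other arrays. Cdk2, the kinase partner of cyclins E and A, was lower against ES cells at day 7 (-0.86 ± 0.22, adjusted p = 0.0182), day 12 (-1.15 ± 0.22, adjusted p = 0.00301), E13.5 (-1.29 ± 0.22, adjusted p = 0.000666) and in juvenile testis (-0.87 ± 0.22, adjusted p = 0.00585). The day 7 call was lost without either day 7 array or ES replicate 2, and the juvenile call without ES replicate 2. It was also lower at E13.5 than at day 16 (-0.64 ± 0.22, adjusted p = 0.0362), a call lost without either day 16 array or E13.5 replicate 1.

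Cdk6, a cyclin D kinase, was at -1.90 and 0.51 at E13.5 against 1.12 and 1.37 in GFP-positive Dazl ES cells (-1.94 ± 0.53, adjusted p = 0.0114), and at 0.80 and 1.13 in juvenile testis. Replicate 1 of E13.5 was the low array. Without E13.5 replicate 1 the E13.5 minus ES difference of Cdk6 was -0.73, and without replicate 2 it was -3.14. The call was lost without ES replicate 2. The juvenile minus E13.5 difference (1.65 ± 0.53, adjusted p = 0.031) lost its call without either juvenile array and without E13.5 replicate 1, where it was 0.45. Cdk4, the other cyclin D kinase, was at 1.53 and 3.08 in juvenile testis and 1.96 and 4.10 at E13.5, against 3.90 and 3.92 in GFP-positive Dazl ES cells, and was called lower in juvenile testis only (-1.60 ± 0.57, adjusted p = 0.0337). In each animal group replicate 1 lay well below replicate 2. The Cdk4 call was lost without either ES array or without juvenile replicate 1, where the difference was -0.83.

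Rb1 and E2f1 encode the retinoblastoma protein and the E2F factor it binds. Both were called higher at day 12, day 16, E13.5 and in juvenile testis than in GFP-positive Dazl ES cells. Day 7 cells are of the Stella line, so these groups do not date the start of the change. Rb1 was at 1.67 and 1.69 at day 12, 1.96 and 1.98 at day 16, 2.44 and 2.32 at E13.5 and 2.19 and 2.17 in juvenile testis, against -0.19 and -0.35 in GFP-positive Dazl ES cells. These 8 arrays all lay above all 8 ES arrays. Its difference from ES cells was 1.95 ± 0.28, adjusted p = 0.000538 at day 12, 2.24 ± 0.28, adjusted p = 0.000242 at day 16, 2.65 ± 0.28, adjusted p = 2.18e-05 at E13.5 and 2.45 ± 0.28, adjusted p = 2.57e-05 in juvenile testis, each called under all 3 scalings. At day 7 it was at 1.01 and 1.03 against -0.29 and 0.73 in GFP-positive Stella ES cells, which was not called (0.80 ± 0.28, adjusted p = 0.0651).

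E2f1 was at 2.76 and 3.05 at E13.5 and 2.09 and 2.49 in juvenile testis, against 0.84 and -0.12 in GFP-positive Dazl ES cells, and the animal arrays lay above all others. The difference was 2.55 ± 0.27, adjusted p = 2.19e-05 at E13.5 and 1.93 ± 0.27, adjusted p = 0.000114 in juvenile testis against ES cells, and 1.67 ± 0.27, adjusted p = 0.000531 at E13.5 against day 16. In culture it was at 1.42 and 1.43 at day 12 (1.06 ± 0.27, adjusted p = 0.0135) and 1.23 and 1.25 at day 16 (0.88 ± 0.27, adjusted p = 0.0354). Replicate 2 of the GFP-positive ES cells was the low array, and both culture calls of E2f1 were lost without it: without it the difference was 0.58 at day 12 and 0.39 at day 16. Either day 12 array left out also ended the day 12 call, and either day 16 array the day 16 call.

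The inhibitors moved in different directions, and some differences depended on the ES gate chosen. Cdkn2b was at 0.36 and 0.30 at day 12, 0.14 and 0.10 at day 16, -0.94 and 0.00 at E13.5 and 0.14 and -0.27 in juvenile testis, all below the 2.82 and 2.90 of GFP-positive Dazl ES cells. It fell by 2.53, 2.74, 3.32 and 2.92 in that order (adjusted p between 7.12e-06 and 0.00015). Against GFP-negative Dazl ES cells, a comparison added after seeing the data, it differed by -0.35 ± 0.30, adjusted p = 0.422 at day 12, -0.56 ± 0.30, adjusted p = 0.202 at day 16, -1.15 ± 0.30, adjusted p = 0.00922 at E13.5 and -0.75 ± 0.30, adjusted p = 0.0563 in juvenile testis. Of these only the E13.5 difference was called. The summed level of the 8 fibroblast markers was 1.85 and 1.97 at day 12, 2.89 and 2.84 at day 16, 1.36 and 1.74 at E13.5 and 6.98 and 8.13 in juvenile testis, against the 42 and 38.3 of GFP-positive Dazl ES cells. Of these markers 8 were called lower at day 12, 6 at day 16, 6 at E13.5 and 6 in juvenile testis, where 1 was called higher. Their part in the inhibitor differences was not tested.

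Cdkn2a was at -1.48 and -1.49 at day 12, -1.38 and -1.38 at day 16 and -1.93 and -1.85 at E13.5, against -0.51 and -0.77 in GFP-positive Dazl ES cells. It was called lower at day 12 (-0.84 ± 0.23, adjusted p = 0.0195), day 16 (-0.74 ± 0.23, adjusted p = 0.0376) and E13.5 (-1.25 ± 0.23, adjusted p = 0.00108). Against GFP-negative Dazl ES cells these signs turned, with 0.52 ± 0.23, adjusted p = 0.121 at day 12, 0.62 ± 0.23, adjusted p = 0.0722 at day 16 and 0.11 ± 0.23, adjusted p = 0.748 at E13.5, none called. The day 16 call was lost whichever array was left out, and the day 12 call without either day 12 array or ES replicate 1. In juvenile testis it was at -0.52 and -0.41, higher than at E13.5 (1.42 ± 0.23, adjusted p = 0.000683) under all 3 scalings and not called against GFP-positive ES cells (0.17 ± 0.23, adjusted p = 0.555). Against GFP-negative Dazl ES cells it was called higher in juvenile testis (1.53 ± 0.23, adjusted p = 0.000204).

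Cdkn1a had the lowest juvenile level of its series. It was at -1.45 and -1.54 in juvenile testis, against 0.75 and 0.46 at E13.5 (-2.10 ± 0.18, adjusted p = 7.72e-06) and 2.15 and 1.94 in GFP-positive Dazl ES cells (-3.54 ± 0.18, adjusted p = 5.84e-08). Both juvenile arrays lay below all 16 others. At E13.5 it fell by 1.44 against ES cells and by 0.61 against day 16 cells (adjusted p = 6.74e-05 and 0.0169), the second a call lost without either day 16 array or E13.5 replicate 2. At day 16 it was lower than in GFP-positive ES cells (-0.83 ± 0.18, adjusted p = 0.00608), a call lost without ES replicate 1, and against GFP-negative Dazl ES cells it differed by -0.01 ± 0.18, adjusted p = 0.971. Against GFP-negative Dazl ES cells the juvenile difference was -2.72 ± 0.18, adjusted p = 4.07e-07 and the E13.5 difference -0.62 ± 0.18, adjusted p = 0.0147, and at day 12 it was called higher (0.60 ± 0.18, adjusted p = 0.0268), whereas against GFP-positive cells it was -0.22 ± 0.18, adjusted p = 0.396 there.

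Cdkn1b, the CIP/KIP inhibitor p27, was higher at day 7 (0.94 ± 0.26, adjusted p = 0.0275) and day 16 (0.89 ± 0.26, adjusted p = 0.0297) and lower at E13.5 than at day 16 (-1.03 ± 0.26, adjusted p = 0.00838). Its levels were 0.01 and -0.05 at day 7, -0.52 and -0.58 at day 16 and -1.90 and -1.26 at E13.5, against -0.83 and -1.09 in GFP-positive Stella and -1.65 and -1.23 in GFP-positive Dazl ES cells. The day 7 call was lost whichever array was left out, the day 16 call without either day 16 array or ES replicate 1, and the E13.5 call without E13.5 replicate 1 or day 16 replicate 1. In juvenile testis it was at -2.30 and -1.93 (-0.68 ± 0.26, adjusted p = 0.0475 against ES cells), a call lost without ES replicate 2 or juvenile replicate 1. Cdkn2c, an INK4 inhibitor, was at 1.60 and -0.72 in juvenile testis and -0.39 and -0.06 at day 12, against -2.08 and -1.81 in GFP-positive Dazl ES cells. It was called higher in both (2.39 ± 0.57, adjusted p = 0.00428 and 1.73 ± 0.57, adjusted p = 0.0442), and the day 12 call was lost whichever array was left out. Cdkn2d, another INK4 inhibitor, was at 5.22 and 2.93 at E13.5 against 2.33 and 2.16 in GFP-positive Dazl ES cells (1.83 ± 0.63, adjusted p = 0.0334), and replicate 1 was the high array. Its call was lost without E13.5 replicate 1, where the difference was 0.68, and without either ES array.

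**Figure D2:**
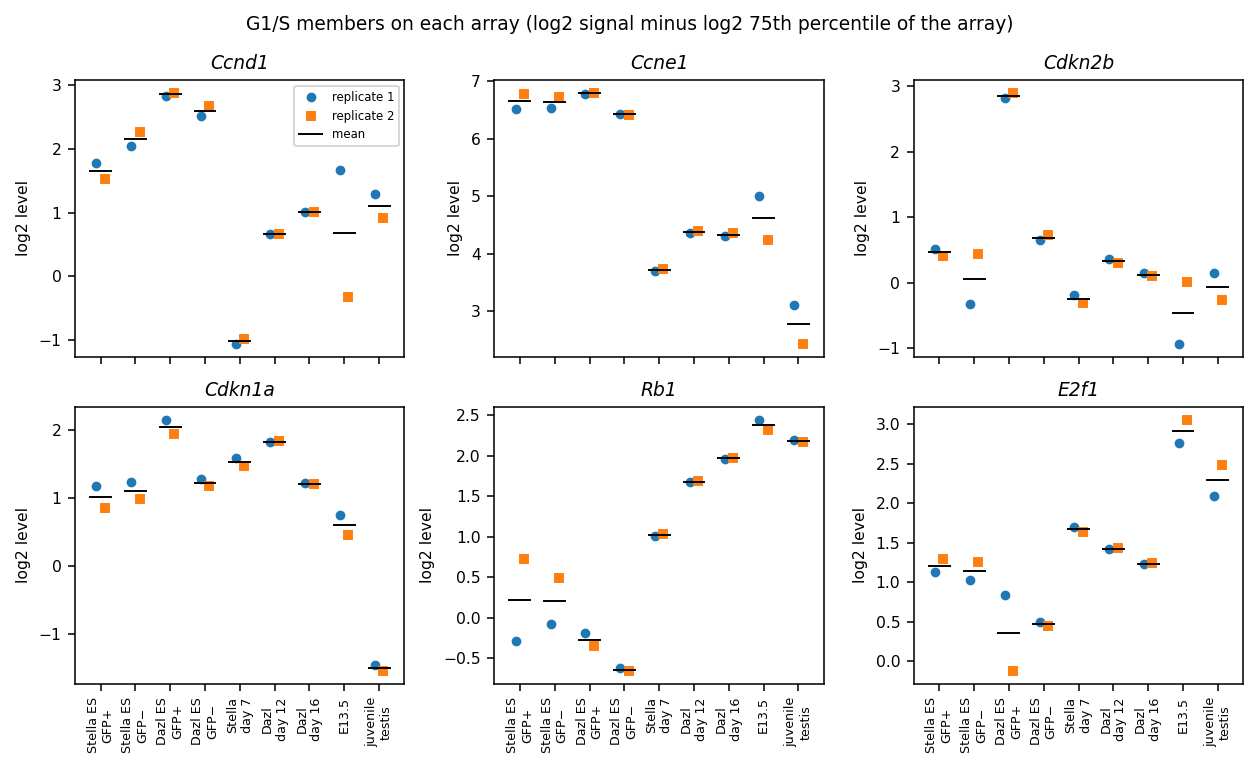
Levels of Ccnd1, Ccne1, Cdkn2b, Cdkn1a, Rb1 and E2f1 (log2 signal minus the array's 75th percentile) in the 9 groups, one point per array and a bar at each group mean. Ccne1 is lower on every differentiated array than on every ES array, Rb1 is higher on the day 12, day 16, E13.5 and juvenile arrays than on every ES array, and Cdkn1a is lowest on both juvenile arrays.

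Of the 10 replication licensing genes, 2 were called lower at day 7, 1 at day 12 and 3 at day 16 against ES cells, and 0 higher, beside 13%, 14.2% and 13.6% of all genes called lower on those days. The class median was -0.45 at day 7, -0.10 at day 12 and -0.17 at day 16, beside -0.15, -0.11 and -0.15 for all genes. At days 12 and 16 the class thus lay near the median of all genes. All 10 licensing genes lay below 0 at day 7 and at day 16. Mcm5, a subunit of the replicative helicase, was at 4.63 and 4.69 at day 12 and 4.73 and 4.78 at day 16, against 5.49 and 5.58 in GFP-positive Dazl ES cells (-0.88 ± 0.14, adjusted p = 0.00106 and -0.78 ± 0.14, adjusted p = 0.0023). It was also lower at day 7, at 5.70 and 5.72 against 6.29 and 6.21 in GFP-positive Stella ES cells (-0.54 ± 0.14, adjusted p = 0.0204), although these levels stand above those of the Dazl line. The day 7 call of Mcm5 was lost under both other scalings, the day 12 call under normexp and the day 16 call under quantile normalization. The day 7 call was also lost without either day 7 array or ES replicate 1.

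At E13.5 Mcm5 was at 5.72 and 5.63, higher than at day 16 (0.92 ± 0.14, adjusted p = 0.00036) and not called against ES cells (0.14 ± 0.14, adjusted p = 0.449). Mcm6, another subunit of the same ring, was at 7.81 and 7.93 at E13.5, above all other arrays, against 7.10 and 7.05 at day 16 (0.79 ± 0.20, adjusted p = 0.00713) and 7.14 and 7.03 in GFP-positive Dazl ES cells (0.78 ± 0.20, adjusted p = 0.00696). Both E13.5 minus day 16 calls were made under all 3 scalings and with any 1 of the compared arrays left out. Fitting only the E13.5 and day 16 arrays kept 1 of the 10 member calls of that comparison, so Mcm5 and Mcm6 did not both hold there. Mcm2 and Mcm7, of the same helicase, were never called.

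Pcna, the sliding clamp of DNA polymerases, was lower at day 7 (-0.82 ± 0.17, adjusted p = 0.00774) and day 16 (-0.61 ± 0.17, adjusted p = 0.0248) than in ES cells, and higher at E13.5 than at day 16 (0.54 ± 0.17, adjusted p = 0.0273). The day 7 call was lost without either day 7 array, and the E13.5 call without either day 16 array or without E13.5 replicate 2, where the difference was 0.32. Cdt1, a loader of the MCM helicase, was called lower at day 16 (-0.75 ± 0.23, adjusted p = 0.0361), and this call, like that of Pcna at day 16, was lost whichever array was left out. Cdc6, another loader, was lower at E13.5 against ES cells (-1.08 ± 0.17, adjusted p = 0.000374) and against day 16 (-0.83 ± 0.17, adjusted p = 0.00248) on its used probe, whereas the other Cdc6 probe was higher at E13.5 than in ES cells by 1.30 (adjusted p = 0.00393). The direction of Cdc6 at E13.5 is therefore not settled by these arrays.

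In juvenile testis 6 of 10 licensing genes were called lower against E13.5 and 6 against GFP-positive Dazl ES cells, and 0 higher. Of all genes 18.9% were called lower and 16% higher against E13.5, and 27.5% lower and 26.3% higher against these ES cells. Mcm3 was at 5.03 and 4.97 in juvenile testis, against 6.10 and 5.85 at E13.5 (-0.98 ± 0.15, adjusted p = 0.000453) and 6.07 and 5.99 in ES cells (-1.03 ± 0.15, adjusted p = 0.000144). Mcm6 was at 6.74 and 7.28 in juvenile testis (-0.86 ± 0.20, adjusted p = 0.00547 against E13.5). Mcm5 (-0.66 ± 0.14, adjusted p = 0.00364), Pcna (-0.68 ± 0.17, adjusted p = 0.0103), Gmnn, the geminin inhibitor of Cdt1 (-0.57 ± 0.15, adjusted p = 0.0109), and Mcm4 (-0.51 ± 0.17, adjusted p = 0.0346) were also lower than at E13.5. In each case the 2 juvenile arrays lay below the 2 E13.5 arrays. Against ES cells the 6 were Mcm3, Mcm4, Mcm5, Pcna, Cdt1 and Cdc6, and the call of Mcm5 was lost without ES replicate 2.

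This licensing result depended on the scaling. The class median for juvenile minus E13.5 was -0.55, with all genes at -0.08. Under quantile normalization it was -0.04 with 1 gene called higher and 0 lower (all genes -0.03), and under normexp it was -0.44 with 0 higher and 1 lower (all genes -0.30). Against ES cells the median was -0.58, compared with -0.15 under quantile normalization, with 1 gene called higher and 3 lower, and 0.14 under normexp, with 0 called. No licensing gene was called lower in juvenile testis under all 3 scalings.

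Among the S to M genes Ccna1, the cyclin A of germ cells, was higher in all 5 differentiated groups than in ES cells, though not under normexp, which turned the sign at E13.5 and in juvenile testis. Ccna1 was at -1.68 and -1.72 at day 7 against -4.16 and -3.48 in GFP-positive Stella ES cells (2.12 ± 0.31, adjusted p = 0.00104). It was at -1.80 and -1.75 at day 12, -2.60 and -2.97 at day 16, -2.71 and -2.92 at E13.5 and -1.99 and -2.24 in juvenile testis, against -4.66 and -4.50 in GFP-positive Dazl ES cells. Every differentiated array lay above every ES array. The probe was not well above background on either Dazl ES array, so the change is a bound: at least 4.66-fold higher at day 12, 2.31-fold at day 16, 2.26-fold at E13.5 and 3.67-fold in juvenile testis.

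The fitted adjusted p of Ccna1 in these 4 comparisons lay between 5.34e-05 and 0.00187. Its higher calls were not made under normexp, which adds the same offset to every probe. The difference became 0.10 at day 7, 0.04 at day 12 and 0.45 at day 16, none of them called. It turned to calls in the lower direction at E13.5 (-0.74, adjusted p = 0.0221) and in juvenile testis (-0.63, adjusted p = 0.0427), so its direction there depends on the background correction. The 75th percentile of processed signal was 112 and 103 on the GFP-positive Dazl ES arrays. It was 343 and 359 at E13.5 and 474 and 435 in juvenile testis, so the same offset weighs differently on a dim probe. The part of the offset in the turned signs was not tested.

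Cdc20, the activator of the anaphase-promoting complex, was lower in culture. It was at 5.74 and 5.73 at day 12 and 5.89 and 5.82 at day 16, against 6.77 and 6.67 in GFP-positive Dazl ES cells (-0.98 ± 0.17, adjusted p = 0.00194 and -0.86 ± 0.17, adjusted p = 0.00456), and at 6.34 and 6.31 at day 7 against 6.99 and 7.21 in GFP-positive Stella ES cells (-0.77 ± 0.17, adjusted p = 0.0101). It was higher at E13.5 than at day 16 (0.72 ± 0.17, adjusted p = 0.00653). The day 16 call held under all 3 scalings, whereas the day 7, day 12 and E13.5 minus day 16 calls did not. The day 7 call was also lost without either day 7 array or ES replicate 2. Aurka, the Aurora A kinase of the spindle poles, fell by 0.82 at day 12 and 0.84 at day 16 (adjusted p = 0.0305 and 0.0296), and both calls were lost whichever array was left out. Birc5, survivin, was at 4.51 and 4.69 at day 7 against 5.62 and 6.04 in GFP-positive Stella ES cells (-1.23 ± 0.21, adjusted p = 0.00263), a call that held with any 1 array left out and under quantile normalization but was lost under normexp.

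At E13.5 Ccna1, Bub1 and Ccnb2 of the 15 S to M genes were called higher than in ES cells, and 0 were called lower. Of all genes 23.4% were called higher and 21.4% lower there. The class median was -0.26 with 9 of the 15 genes below 0, beside a median of 0.05 for all genes. Without E13.5 replicate 1 the class median was 0.17. Bub1, a kinase of the spindle checkpoint, was at 3.48 and 3.30 at E13.5 against 2.49 and 2.40 at day 16 (0.95 ± 0.23, adjusted p = 0.00722) and 2.48 and 2.62 in GFP-positive Dazl ES cells (0.84 ± 0.23, adjusted p = 0.0123). Ccnb2, cyclin B2, was at 5.86 and 6.01 against 5.37 and 5.18 in the same ES cells (0.66 ± 0.17, adjusted p = 0.00849). In both genes the E13.5 arrays lay above the ES arrays. The Bub1 call against ES cells was lost without ES replicate 1 or E13.5 replicate 1, and that of Ccnb2 without ES replicate 2.

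In juvenile testis 8 of 15 S to M genes were called lower against E13.5 and 0 higher, beside 18.9% and 16% of all genes. Ccnb2 was at 4.41 and 4.77 in juvenile testis against 5.86 and 6.01 at E13.5 (-1.34 ± 0.17, adjusted p = 0.000144). Ccna2, the somatic cyclin A, was at 2.08 and 1.98 in juvenile testis against 2.97 and 3.70 at E13.5 (-1.30 ± 0.21, adjusted p = 0.000649) and 3.63 and 3.55 in GFP-positive Dazl ES cells (-1.56 ± 0.21, adjusted p = 8.22e-05). Cdk1, the kinase of cyclins A and B, was at 1.23 and 1.38 in juvenile testis against 2.00 and 3.17 at E13.5 (-1.28 ± 0.30, adjusted p = 0.00641) and 3.36 and 3.26 in ES cells (-2.01 ± 0.30, adjusted p = 0.000183). For Ccna2 and Cdk1 both juvenile arrays lay below all 16 others, and Ccnb2 showed the same.

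Aurka was at 4.36 and 4.43 in juvenile testis against 5.0 and 5.94 at E13.5 (-1.08 ± 0.25, adjusted p = 0.00587). Plk1, the polo-like kinase of mitotic entry (-0.75 ± 0.23, adjusted p = 0.0235), Birc5 (-0.87 ± 0.21, adjusted p = 0.00804), Cdc20 (-0.66 ± 0.17, adjusted p = 0.0125) and Bub1 (-0.76 ± 0.23, adjusted p = 0.026) completed the 8. Aurka, Cdk1, Ccnb2 and Ccna2 were called lower under all 3 scalings, 4 of the 8. The class median for juvenile minus E13.5 was -0.66, and it was -0.41 under quantile normalization and -0.56 under normexp, each with 0 called higher and 4 lower. Plk1 lost its call without E13.5 replicate 2 or juvenile replicate 2, Cdc20 without E13.5 replicate 2 or juvenile replicate 1, Bub1 without E13.5 replicate 1 or juvenile replicate 2, and Mcm4 of the licensing class without E13.5 replicate 2 or juvenile replicate 1.

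Of the 40 members, 14 were called lower in juvenile testis against both E13.5 and GFP-positive Dazl ES cells (35%), beside 11.7% of all tested genes. None was called higher against both, beside 9.94% of all genes. Both comparisons use the same juvenile arrays. The 14 were Ccnd3, Ccne1 and Cdkn1a of the G1/S class, Mcm3, Mcm4, Mcm5 and Pcna of the licensing class, and Ccna2, Ccnb2, Cdk1, Cdc20, Plk1, Aurka and Birc5 of the S to M class. Of these only Ccnd3, Ccne1, Cdkn1a, Ccna2, Cdk1 and Aurka were called lower against both under all 3 scalings. Under normexp Mcm4, Mcm5 and Ccnb2 turned sign against ES cells (0.20, 0.25 and 0.16). Under quantile normalization Mcm4 turned sign against E13.5 (0.036). When the 4 arrays of E13.5 and juvenile testis were fitted alone, limma called 0 members. Before adjustment, 1 higher and 6 lower members had p under 0.05 there. Omitting E13.5 replicate 1 leaves 1 E13.5 library, so only differences are given, for the members whose calls changed. The juvenile minus E13.5 difference was then 0.45 for Cdk6 and -0.67 for Bub1. It was 1.43 for Ccnd1, 1.88 for Ccne2 and 0.53 for Cdc6. For Cdk4 it was -1.795, for Cdkn1b -0.86 and for Top2a -0.96. The summed level of 6 Sertoli cell markers was 14.9 and 5.76 in juvenile testis against 0.557 and 5.22 at E13.5, with all 6 well above background on both juvenile arrays and 4 called higher. The summed level of the 8 fibroblast markers was 6.98 and 8.13 in juvenile testis against 1.36 and 1.74 at E13.5, with 4 called higher and 0 lower. The part of Sertoli cell or fibroblast RNA in the juvenile differences was not tested.

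**Figure D3:**
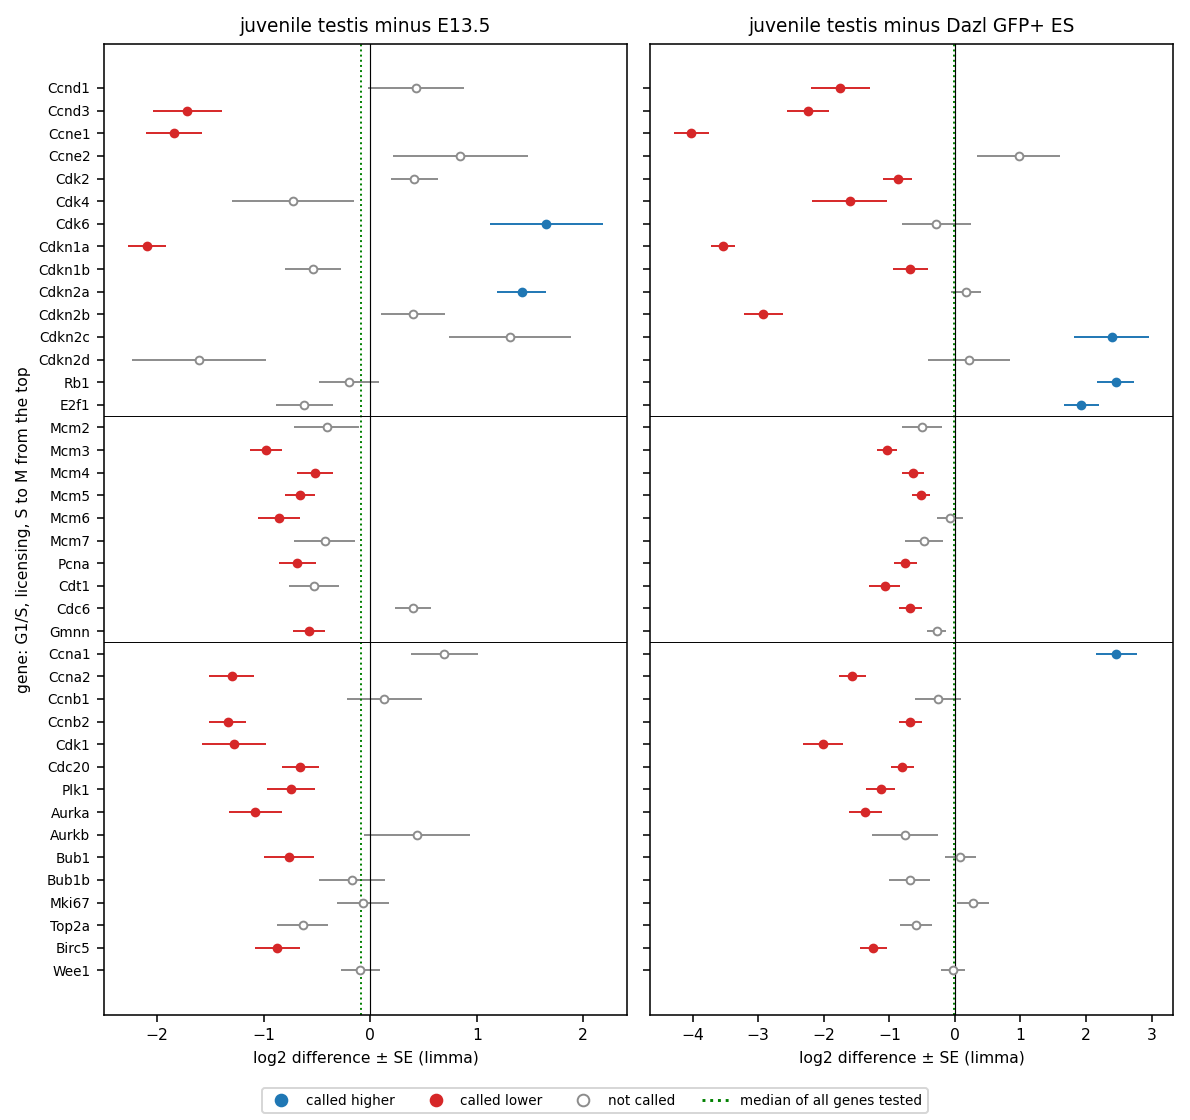
Log2 differences of the 40 members with bars of 1 SE, juvenile testis minus E13.5 on the left and juvenile testis minus GFP-positive Dazl ES cells on the right, filled where called (blue higher, red lower) and open where not, with a dotted line at the median of all genes. On the left 17 members are called lower and 2 higher, and on the right 21 and 4.

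**Figure D4:**
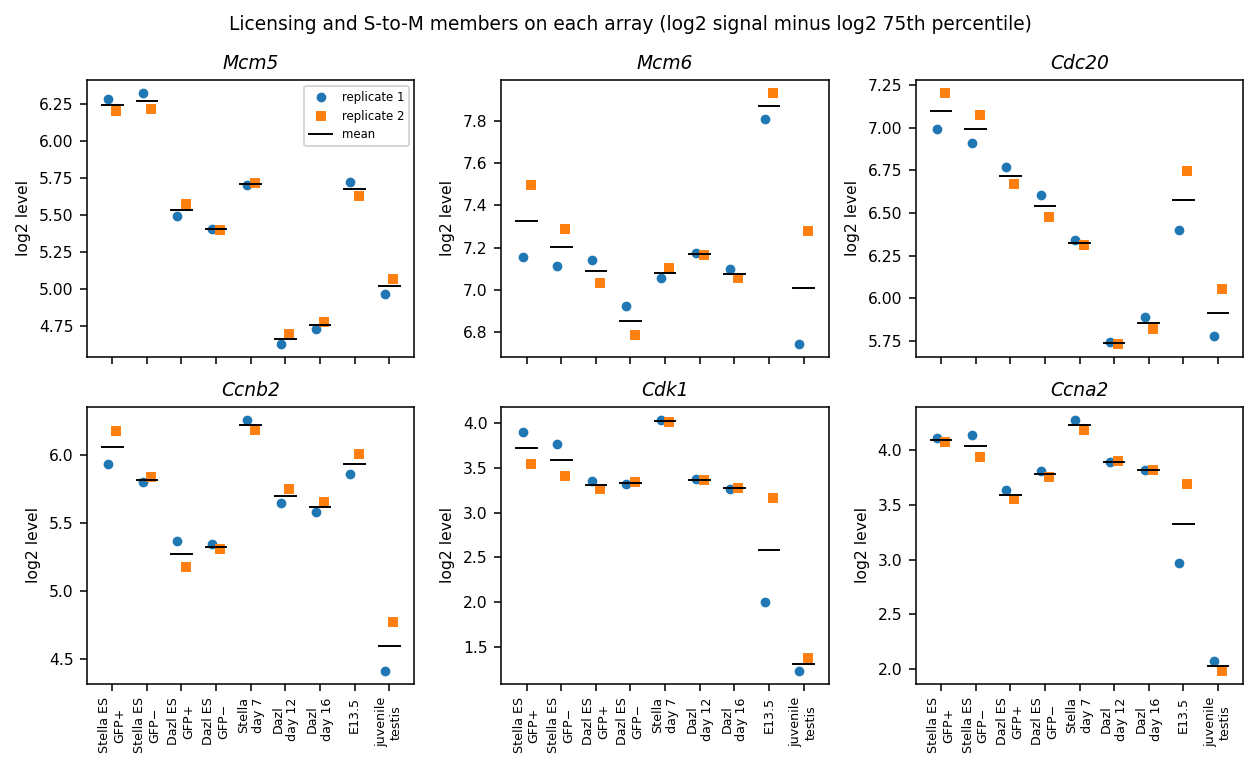
Levels of Mcm5, Mcm6, Cdc20, Ccnb2, Cdk1 and Ccna2 (log2 signal minus the array's 75th percentile) in the 9 groups, one point per array and a bar at each group mean. Mcm6 is highest on the E13.5 arrays, and Ccnb2, Cdk1 and Ccna2 are lowest on both juvenile arrays.

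The 2 E13.5 libraries differed by more than 1 log2 unit in 10 of the 40 members (25%, all genes 25.9%), and the 2 juvenile libraries in 5 (12.5%, all genes 18.2%). Replicate 1 of E13.5 was above replicate 2 by 2.29 for Cdkn2d, 2.06 for Ccne2, 2.00 for Ccnd1 and 1.09 for Cdkn2c. It lay below replicate 2 for Cdk6 (-2.40), Cdk4 (-2.15), Aurkb (-1.80), Cdk1 (-1.17), Ccnb1 (-1.16) and Bub1b (-1.06). The median absolute difference between replicates over the members was 0.563 at E13.5 and 0.364 in juvenile testis, and at most 0.244 in the other groups. The meiotic gene Sycp3 was at 1.13 in replicate 1 against -1.77 in replicate 2. Among the 6 Sertoli cell markers, Dhh was at -3.28 in replicate 1 against 1.97 in replicate 2, and Cldn11 at -4.59 against -3.48. Inha alone of these markers went the other way, at -1.69 against -2.30.

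Without E13.5 replicate 1 the E13.5 group is 1 library. Its own spread is then not measured, so only differences are given, for the members whose calls changed. Against ES cells the difference was 0.68 for Cdkn2d, 0.75 for Bub1 and 0.72 for Mki67. Against day 16 it was -0.57 for Cdk2, -0.71 for Cdkn1b and -1.34 for Ccnd1. For Cdk6 it was 0.73, for Ccnb1 1.06, for Aurka 1.02 and for Mki67 0.85.

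**Figure D5:**
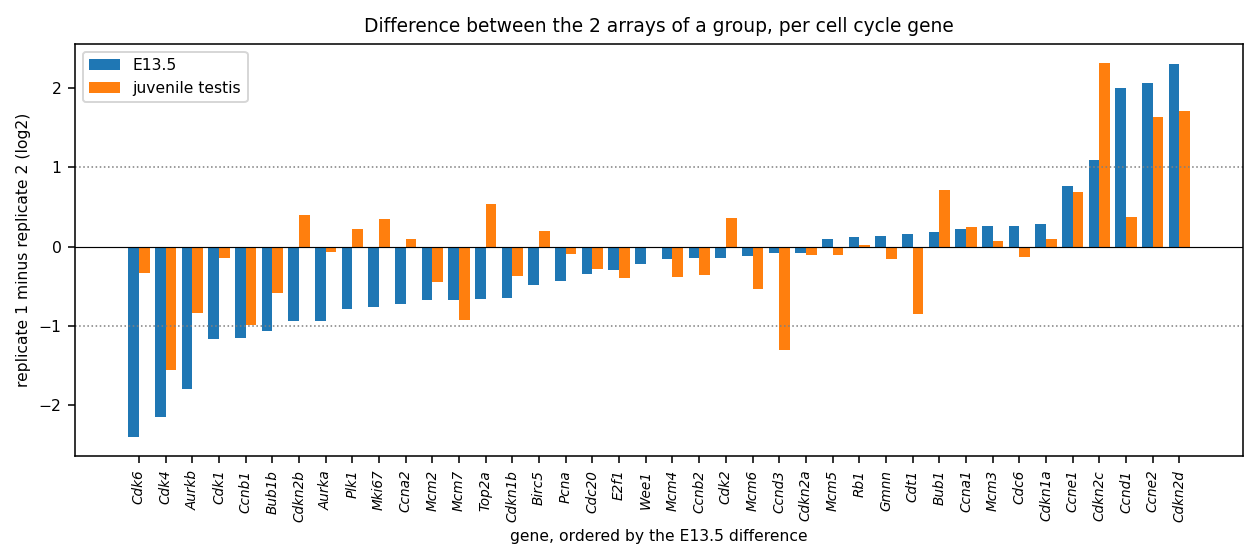
Level of replicate 1 minus replicate 2 (log2 units) for each of the 40 members, at E13.5 and in juvenile testis. At E13.5 the bars run from -2.40 for Cdk6 to 2.29 for Cdkn2d.

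Cell cycle genes outside the 40 members, listed by role, gave further counts. Of 37 other replication genes 16 were called higher and 4 lower at E13.5 against day 16, led by Pole, a subunit of DNA polymerase epsilon (1.65 ± 0.17, adjusted p = 3.14e-05), Mcm8 (1.35 ± 0.16, adjusted p = 5.46e-05) and Prim1, a primase subunit (1.36 ± 0.18, adjusted p = 0.000151), beside 24.1% of all genes called higher and 18.4% lower. In juvenile testis against E13.5, 1 was called higher and 15 lower, among them Gins1, of the replicative helicase complex (-1.18 ± 0.17, adjusted p = 0.000272), beside 16% and 18.9% of all genes. Their medians were 0.44 and -0.48 in these comparisons, and all genes were at 0.19 and -0.08. Without E13.5 replicate 1, which leaves 1 E13.5 library, the medians of these replication genes were 0.47 and -0.44.

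Of 29 other G2/M genes 8 were called higher and 1 lower at E13.5 against day 16, led by Espl1, separase (1.76 ± 0.14, adjusted p = 4.08e-06), and Incenp, of the chromosomal passenger complex (1.27 ± 0.18, adjusted p = 0.000231). In juvenile testis 0 were called higher and 13 lower against E13.5, led by Ect2, a regulator of cytokinesis (-1.49 ± 0.21, adjusted p = 0.000254). Aurkc, the Aurora kinase of germ cells, was called higher at day 7 (3.46 ± 0.44, adjusted p = 0.000479), day 12 (4.71 ± 0.44, adjusted p = 3.12e-05) and day 16 (3.97 ± 0.44, adjusted p = 0.000112) against ES cells, and lower at E13.5 than at day 16 (-1.79 ± 0.44, adjusted p = 0.00718). Of 21 other G1/S genes 5 were called higher and 4 lower in juvenile testis against E13.5, including Ccnd2, cyclin D2, which was higher (4.17 ± 0.55, adjusted p = 0.000173), and Cdkn1c, the inhibitor p57, which was lower (-2.34 ± 0.38, adjusted p = 0.000701). The all-gene shares in these comparisons are those given for the replication genes. The G2/M median at E13.5 against day 16 was 0.13, and 0.52 without E13.5 replicate 1. In juvenile testis against E13.5 it was -0.53, and -0.77 without that library. The G1/S median in juvenile testis against E13.5 was -0.13, and -0.21 without it.

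Several members have probes that disagree. Ccnb1, cyclin B1, was not called in juvenile testis against E13.5 on its used probe (0.13 ± 0.36, adjusted p = 0.819), but its other probes gave -2.64 (adjusted p = 0.000159) and -0.96 (adjusted p = 0.0494). Against ES cells these other Ccnb1 probes gave -3.09 (adjusted p = 2.15e-05) and -1.42 (adjusted p = 0.0047), where the used probe gave -0.26 ± 0.36, adjusted p = 0.565. The other Mcm3 probe gave -0.22 in juvenile testis against ES cells (adjusted p = 0.279), where the used probe gave -1.03. The second Cdc6 probe fell by 2.67 in juvenile testis against E13.5 (adjusted p = 4.85e-05), where the used probe gave 0.40 ± 0.17, adjusted p = 0.0914. For Mki67, the proliferation antigen, the used probe was not called at day 7 (0.62 ± 0.24, adjusted p = 0.0966) and the other was higher by 1.24 (adjusted p = 0.0185). A further Top2a probe was higher at day 7 by 1.59 (adjusted p = 0.0448), where the used probe gave 0.47 ± 0.24, adjusted p = 0.195. A further Cdk6 probe was lower at day 12 (-2.19, adjusted p = 0.0263) and day 16 (-2.53, adjusted p = 0.0147), where the used probe gave -1.39 ± 0.53, adjusted p = 0.0749 and -1.46 ± 0.53, adjusted p = 0.066.

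The 9 members never called on their used probes in the 9 comparisons were Ccne2, Mcm2, Mcm7, Ccnb1, Aurkb, Bub1b, Mki67, Top2a and Wee1. Their smallest adjusted p was that of Top2a, topoisomerase II alpha, which was at 2.40 and 1.87 in juvenile testis against 2.57 and 2.90 in GFP-positive Dazl ES cells (-0.60 ± 0.24, adjusted p = 0.0545). Aurkb, the Aurora kinase of the passenger complex, was at -1.75 and 0.05 at E13.5 against 0.23 and 0.48 in the same ES cells (-1.21 ± 0.50, adjusted p = 0.0702), with replicate 1 below and replicate 2 close to them. Wee1, the kinase that restrains Cdk1, came closest at day 7 (0.48 ± 0.18, adjusted p = 0.0821). Against GFP-negative Dazl ES cells Wee1 was called higher at day 16 (0.76 ± 0.18, adjusted p = 0.0109), at E13.5 (0.70 ± 0.18, adjusted p = 0.00846) and in juvenile testis (0.61 ± 0.18, adjusted p = 0.0144).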

How the data were processed

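The authors scanned 18 arrays in 1 colour and extracted spots with Agilent Feature Extraction 9.1.3.1, under protocol GE1-v5_95_Feb07 except for the day 7 arrays under GE1-v5_91_0806, per the file headers. The deposited processed signal is an intensity after background subtraction, per the file headers, not scaled between arrays. Aligners and builds do not apply. A deposited table of group means was not used here.

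From these intensities, 172 probes with outlier calls were left out of 41174, control spots were dropped, spots of a probe were averaged, and log2 signals were set against the 75th percentile of each array (103 to 474 in signal units). Of the spots, 50.6% to 68.9% were well above background per array, and 0 were saturated. The number of arrays, 2 per group, limits the precision. Probes were named through RefSeq by accession (22846), symbol (6637) or synonym (3084), and 8435 kept the file's name. Cdk1 is Cdc2a in the files. A probe was tested if well above background on both arrays of at least 1 group, and the brightest such probe stood for its gene; 15 members have several probes.

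limma 3.58.1 in R 4.3.3 fitted group means on 18876 genes, with 9 residual degrees of freedom, two-sided moderated tests and Benjamini-Hochberg adjustment. Where neither array of the lower group was well above background for a probe, a bound is given: the brighter group's mean against the dim group's mean of, per array, the higher of the lowest signal well above background and the probe's own signal. Tables were handled with pandas 2.3.3 and numpy 2.4.6 under Python 3.11.15, and plots drawn with matplotlib 3.10.9. The fit was tested on simulated data. Groups come from the labels. All members could be named, and up to 3 other cell cycle genes per list, comparison and direction by smallest p. The members and lists were chosen with earlier results of these data known. Alternatives were quantile normalization, normexp with offset 50, other probe filters, the mean over probes, slide and replicate blocks, fits of only the arrays compared, and arrays left out. A further 3 were added after seeing the data: omission of E13.5 replicate 1, GFP-negative ES cells as the baseline, and slide as a random block. No pair of replicate arrays agreed within spot noise: over 114 probes spotted repeatedly, replicates differed by 1.57 to 25.7 times what the spread between spots gives.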

Additional observations from a re-analysis of the deposited data

How the results depend on the processing

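Of the 107 member calls, 79 were kept under quantile normalization and 61 under normexp, 104 with no filter on dim probes and 102 with the mean over probes. Member counts for each setting are given here without the share of all genes called under it. The count of members called became 10 for juvenile minus E13.5 under quantile normalization. Under normexp it was 1 in the Dazl sort, 2 at day 7, 7 at day 12, 23 at E13.5 against ES cells, 28 at E13.5 against day 16, 16 in juvenile testis against ES cells and 10 against E13.5. With slide as a block it was 1 in the Dazl sort and 8 at day 16. Fitting only the arrays compared gave 6 in the Dazl sort, 22 at day 16, 8 at E13.5 against ES cells, 1 at E13.5 against day 16, 14 in juvenile testis against ES cells and 0 against E13.5. Leaving out arrays gave 0 to 0 in the Stella sort and in the difference of sorts, 0 to 4 in the Dazl sort, 4 to 18 at day 7, 8 to 15 at day 12, 7 to 19 at day 16, 12 to 24 at E13.5 against ES cells, 6 to 18 against day 16, 21 to 27 in juvenile testis against ES cells and 18 to 23 against E13.5. Each fit with an array left out has 1 array in that group, so its spread comes from the other groups. Omitting E13.5 replicate 1 from every fit changed the shared spread, and more members were then called at day 7, day 12 and day 16.

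Samples share only a replicate number in the labels. With that number as a replicate block, 10 members were called at day 7, 15 at day 16, 16 at E13.5 against ES cells, 25 in juvenile testis against ES cells and 19 against E13.5, and all 107 calls were kept. The correlation of same-numbered deviations ran from -0.05 (juvenile against ES cells) to 0.558 (Stella sort).

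Signs turned as follows, and the cause was not tested. Under quantile normalization Mcm6 was 0.69 in juvenile testis against ES cells, and Gmnn was 0.20 and Mcm4 0.036 against E13.5. Under normexp, at E13.5 against ES cells, Ccna1 was -0.74, Mcm3 0.68, Mcm4 0.63 and Wee1 -0.60. Against day 16, Mcm7 was 0.89, Plk1 0.83 and Mcm4 0.77. In juvenile testis against ES cells, Ccna1 was -0.63, Mcm5 0.25, Mcm4 0.20 and Ccnb2 0.16. With the mean over probes Cdc6 was 0.11 at E13.5 against ES cells, and in juvenile testis against E13.5 Ccnb1 was -1.16 and Cdc6 -1.13. Between the fits without E13.5 replicate 2 and without replicate 1, Cdk6 ran from -1.68 to 0.73 at E13.5 against day 16. Ccnd1 ran from 0.66 to -1.34 in the same comparison, and from -0.57 to 1.43 in juvenile testis against E13.5. Against GFP-negative ES cells, Cdkn2a was 0.52 and Cdkn1a 0.60 at day 12, Cdkn2a 0.62 at day 16 and 0.11 at E13.5, and Wee1 0.61 in juvenile testis. Depth does not apply to arrays; signal near background limits Ccna1.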
